A study of Drosophila melanogaster with 4 samples.

Results

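The regions described here are XHet, the separately assembled heterochromatic sequence of the X chromosome, and the proximal X, the 2 Mb of the X arm sequence that face the centromere. They were divided into windows of 1 kb. XHet, 204112 bp long, gave 205 windows, and the X from 20422828 to its last base at 22422827 gave 2000, of which 223 were left out because they touch X:21392175-21431907 or X:21502918-21684449. The remaining 1777 windows and those of XHet make 1982 of the 139719 windows of the 13 sequences that carry clusters. The windows were chosen by position alone. The value of a window is the percent of its bases inside a cluster of H3K9me3 enrichment (coverage), taken from the lists the authors deposited.

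The data come from ChIP-seq of histone H3 trimethylated at lysine 9 (H3K9me3) in nuclei of heads from adult Drosophila melanogaster of the wild-type strain Oregon-R, with the stage given as mixed adult and no sex given. Heads were sieved from adults kept in population cages on a 22-day cycle. There were 2 ChIP libraries and 2 input libraries. All 4 samples share strain, stage and genotype, so the only contrast between libraries is ChIP against input, and no separate values of the inputs were used here. One list of clusters belongs to each ChIP replicate and one, called the combined set, to the series as a whole. The sources used here do not say whether the 2 replicates came from separate collections of flies, and p-values and SDs here measure only how these libraries differ.

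H3K9me3 is the mark of constitutive heterochromatin. It is written by the methyltransferases Su(var)3-9 and Eggless, and it is bound by Heterochromatin Protein 1, which compacts the chromatin. In Drosophila it is densest around the centromeres, where satellite DNA and transposon remnants accumulate. The base of the X arm is the passage from gene-rich euchromatin to such heterochromatin. It also holds the 20A locus and flamenco, sources of the piRNAs that silence transposons, and these are the stretches left out.

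H3K9me3 clusters took up much more of XHet than of the proximal X, and each sequence had 1 long domain. In each replicate that domain held most of the cluster sequence of XHet but a minority of that of the proximal X. In the proximal X the remainder lay mostly in short clusters. In the combined set the domain held 39.2% of the cluster sequence on XHet and 14.6% on the proximal X. Coverage of XHet was 39.8% in replicate 1 and 41.6% in replicate 2, and that of the proximal X was 11.5% and 11.0%. The means were 40.7% ± 1.28 for XHet and 11.2% ± 0.37 for the proximal X (SD, n = 2 ChIP replicates, as for every mean ± SD that follows). Both libraries gave the same order, and the difference, 29.5 percentage points ± 1.65, was many times the spread between them. An exact two-sided permutation test over the libraries gave p = 0.5, the smallest value that 2 libraries allow, so no difference between regions in these data can pass a threshold of 0.05. In the combined set coverage was 64.8% on XHet and 22.4% on the proximal X.

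XHet had a larger share of filled windows than the proximal X. At least 50% of the window was covered in both replicates in 70 of 205 windows of XHet (34.1%) and in 136 of 1777 windows of the proximal X (7.65%). Over all 139719 windows the share was 14.1%, so XHet lay above that background and the proximal X below it. The rest of the X arm had 5.72% of its windows past the same limit. No cluster of either replicate reached 43.4% of the windows of XHet and 80.2% of those of the proximal X, against 77.5% over all windows.

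**Figure D1:**
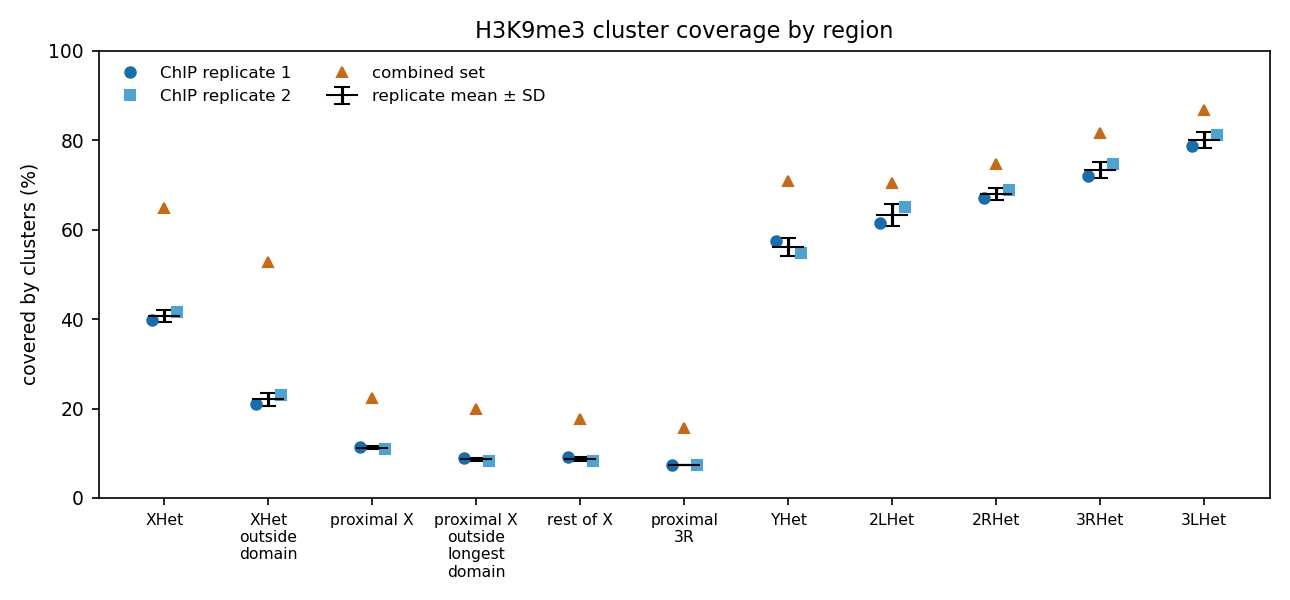
Percent of bases inside H3K9me3 clusters (vertical axis) for XHet, the proximal X and the regions they were set beside (horizontal axis). Circles and squares are the 2 ChIP replicates, triangles the combined set, and black bars the replicate mean ± SD; XHet stands at 40.7%, far above the proximal X at 11.2% and below every other Het sequence shown.

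The longest domain of the proximal X lay at X:21758828-21819827. A domain was taken as a run of windows at least 50% covered in both replicates, bridging up to 3 windows below that limit and at least 10 windows long. This one measured 61 kb and ended 603 kb before the end of the arm sequence. Its coverage was 84.3% in replicate 1 and 84.6% in replicate 2, with 94.9% for the combined set. The replicates shared 49.4 kb of it, and 1.99 kb was covered in replicate 1 alone and 2.16 kb in replicate 2 alone. The rule asks for coverage in both replicates, so a large shared part is built in. The domain held 50 of the 136 windows called in both replicates (36.8%). Of all the cluster sequence of the proximal X, 25.2% in replicate 1 and 26.5% in replicate 2 fell inside it.

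The 2 edges of this domain were unlike each other. On the side away from the centromere it was preceded by a stretch with no cluster at all, which the 2 replicates gave as 71.4 and 71.7 kb and the combined set as 71.1 kb. The first cluster after that stretch began at 21758763 in replicate 1 and at 21758858 in replicate 2, and at 21758499 by the combined set. That first cluster scored 3.46, 2.83 and 2.97 in the same order, and in replicate 1 and the combined set no cluster of the proximal X scored higher. Scores are the authors' own values per cluster on a scale that is not stated, so they were compared only within a list.

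Scores were then mostly lower toward the centromere. In replicate 1 the next clusters scored 2.59, 2.04 and 1.98, and the widest of that list, 13994 bp at X:21795450-21809443, scored 1.65. In replicate 2 the highest score, 2.87, belonged to the cluster at X:21765583-21769954, and the widest cluster, 24818 bp at X:21785799-21810616, scored 1.78. The order was not strict: the last cluster inside the domain scored 1.89 in replicate 1, above the 2 before it. Beyond the domain, clusters at X:21823657-21831211 in replicate 1 and X:21823498-21830243 in replicate 2 still scored 1.65 and 1.80. From 21835050 on every cluster of the replicates, up to 100 kb past the domain, scored at most 1.18. In the combined set the 3 longest clusters of the proximal X were in or next to the domain: X:21785330-21811713 (26384 bp, score 1.71), X:21765259-21784148 (18890 bp, score 1.93) and X:21822154-21834828 (12675 bp, score 1.49). Its 3 highest scores were also there, 2.97 at X:21758499-21764195, 1.93 at the second of the longest clusters, and 1.81 at X:21812553-21819908.

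**Figure D2:**
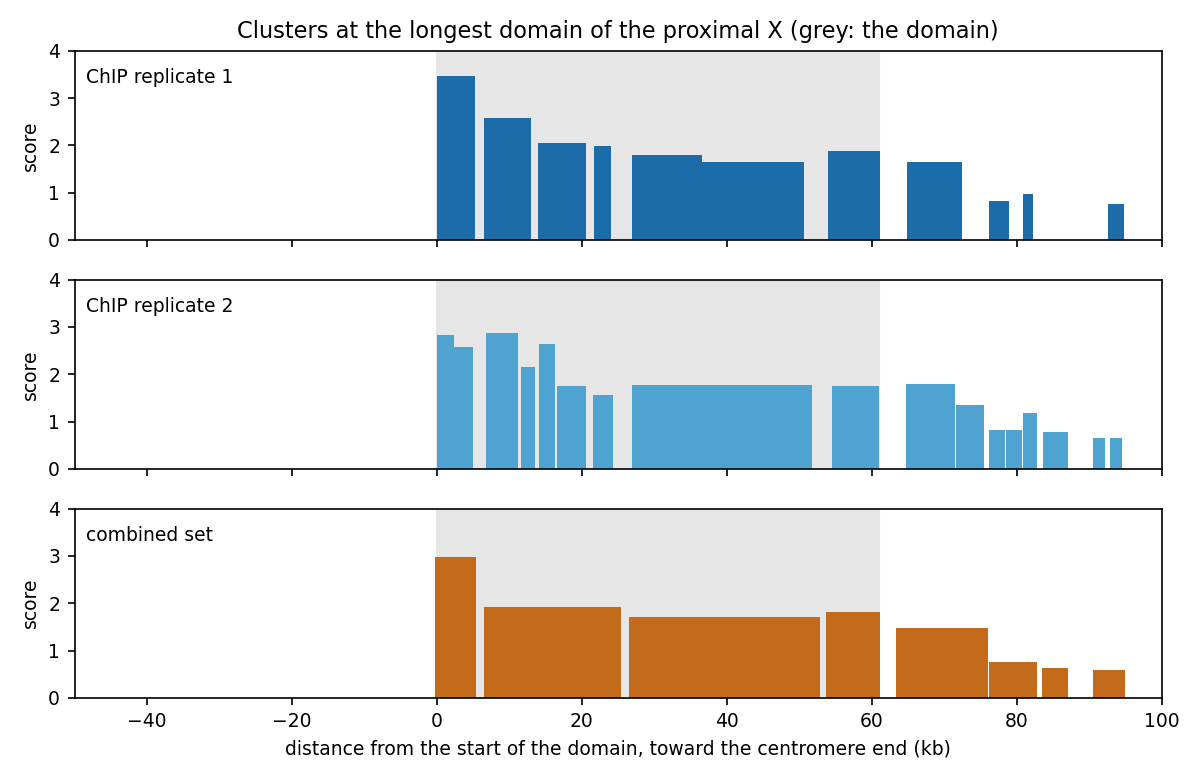
Clusters at the longest domain of the proximal X in the 2 ChIP replicates and the combined set: the width of each bar is the extent of a cluster in kb from the start of the domain, and its height is the authors' score. Apart from the edge of the first cluster no bar stands in the 50 kb before the domain, and the first bars reach 3.46, 2.83 and 2.97.

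Coverage showed the same unlike edges. The 10 kb before the domain were 0.325% ± 0.46 covered and the 10 kb after it 62.8% ± 0.64. In the next 10 kb the replicates parted: over the first 20 kb after the domain replicate 1 was 52.5% covered and replicate 2 was 76.2% covered, and over 50 kb the values were 28.1% and 47.6%. If bridging was allowed across up to 10 windows, the domain reached X:21758828-21840827, 82 kb that were 76.7% covered in replicate 1 and 82.7% in replicate 2. Without any bridging only its core at X:21785828-21809827 remained, 24 kb that were 98.4% and 100% covered.

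By this rule the only other domain of the proximal X was short and weak. It lay at X:20933828-20943827, 1479 kb from the end of the arm, and had 5 windows out of 10 past the limit in both replicates. Replicate 1 covered 64.2% of it, replicate 2 covered 64.9% and the combined set 91.5%. Each replicate had 3 clusters there, which scored between 0.69 and 0.90, and none was wider than 3311 bp. With bridging across up to 10 windows it became 18 kb, at X:20933828-20951827, and 2 more domains appeared, of 26 kb at X:21476828-21502827 and of 11 kb at X:22386828-22397827. The 26 kb were 54.7% covered in replicate 1 and 31.5% in replicate 2, and the 11 kb were 44.8% and 36.0% covered.

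The 70 kb between the 2 left-out piRNA loci, X:21432828-21502827, had 20.3% coverage in replicate 1 and 14.0% in replicate 2, and 29.5% by the combined set. Most of it lay toward flamenco. The 10 kb that follow the 20A interval had no cluster in any list, and the 10 kb before the flamenco interval were 39.1% covered in replicate 1 and 19.6% in replicate 2. The clusters there were narrow in both replicates, 3539 bp at most, and the widest in each ran across the border of the flamenco interval. On the centromere side of flamenco the first 10 kb were 25.2% and 23.8% covered, and no cluster followed until the long domain.

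Outside the long domain, coverage of the proximal X was close to that of the rest of the arm in the replicates. The proximal X with the domain was 11.2% ± 0.37 covered, against 8.71% ± 0.55 for the rest of the X, a difference of 2.51 points ± 0.18 in the same direction in both libraries (exact permutation p = 0.5, the smallest possible). By the combined set it was 4.71 points. With the 2 left-out piRNA loci kept, the proximal X stood 6.70 points above the rest of the X in the replicate mean. Without that 1 domain its coverage was 8.62% ± 0.39, and the difference from the rest of the X was -0.20 points in replicate 1 and 0.02 points in replicate 2 (exact permutation p = 1). By the combined set that difference was 2.13 points. The 10 blocks of 2 Mb that precede the proximal X had replicate means between 5.12% and 11.5%, and 1 of them exceeded the proximal X in both replicates. With the piRNA loci left out, blocks of the same arm thus differed from each other by more than the proximal X differed from the rest. The blocks had nothing left out. With the loci kept, the proximal X was 15.4% covered in the replicate mean, above every block. These comparisons without the domain were chosen after seeing the data. They took the longest domain out of the proximal X alone, and the rest of the X kept its 21 domains. A lower value for the proximal X was thus built in.

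The first 969 kb of the proximal X, up to the 20A interval, were 7.97% covered in replicate 1 and 6.65% in replicate 2. Both values were somewhat below those of the rest of the arm, 9.10% and 8.32%. From the flamenco interval to the end of the arm, 738 kb, the values were 15.3% and 16.3%. For the 603 kb between the long domain and the end of the arm they were 9.73% and 11.0%.

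Of the 33 bins of 50 kb that kept all their windows, 2 were at least 25% covered in both replicates, and the median bin was 6.61% covered in the replicate mean. The bin X:21772828-21822827 stood highest at 80.0% ± 0.84, and the next, X:21822828-21872827, had 28.0% in replicate 1 and 47.6% in replicate 2. A further 4 of the 33 bins held no cluster in either replicate.

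**Figure D3:**
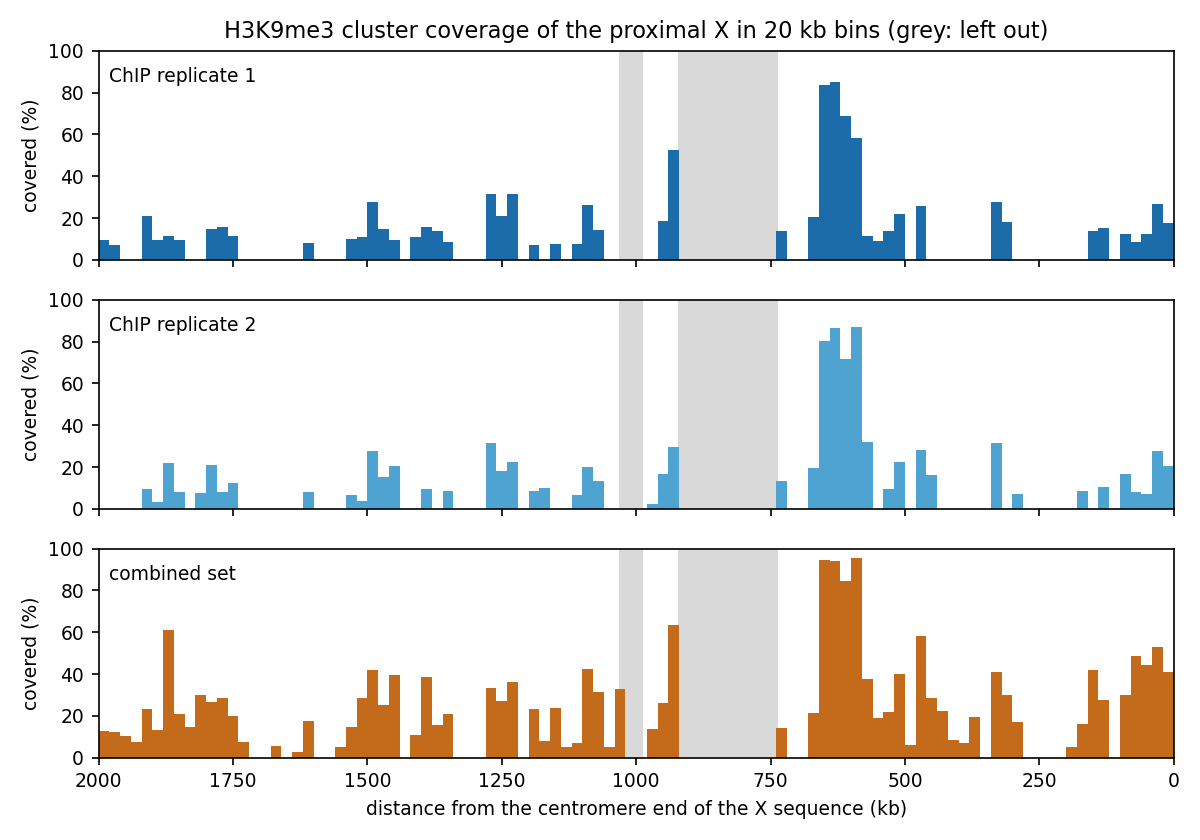
Percent of bases inside clusters (vertical axes) in 20 kb bins of the proximal X, by distance from the centromere end of the X sequence (horizontal axis, the end at the right), for the 2 ChIP replicates and the combined set; grey marks the left-out windows. One tall group of bins about 600 kb from the end stands out in all 3 lists, and no group of that height stands at the end.

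Outside the long domain, the clusters of the proximal X had about the same median width as those of the rest of the arm. Clusters were counted where their midpoint fell. Of the 76 clusters of replicate 1 and the 71 of replicate 2, 69 and 62 lay outside it, or 38.2 ± 2.88 per Mb, against 35.8 ± 1.73 per Mb on the rest of the X. Their median width was 1901 bp ± 42.8, against 1958 bp ± 36.1. Their median score was 0.82 in replicate 1 and 0.78 in replicate 2, against 0.78 and 0.78 on the rest of the X. The 1 cluster of at least 10 kb in each replicate lay inside the domain, so none remained outside it. In the combined set 1 remained. The rest of the X, which kept its own domains in these comparisons, had 4 and 7 in the replicates. Outside domains the called windows of the proximal X fell into 36 separate runs, with a median of 2 kb and a longest of 7 kb.

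Long stretches of the proximal X had no cluster in either replicate. The longest were X:20676064-20805674, of 130 kb, and X:22133372-22256828, of 123 kb, with 4.41% and 0.918% covered by the combined set. A stretch of 105 kb at X:21977980-22083012 was 12.0% covered in the combined set, one of 93.2 kb at X:20807708-20900865 was 2.47% covered, and one of 80.5 kb at X:21074754-21155283 was 0% covered. The second of these lies between the long domain and the end of the arm, 166 kb from the end. Gaps in the assembly and repeats to which reads cannot be placed were not examined, so an empty stretch cannot be read as chromatin without the mark.

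In the replicates the end of the arm carried small clusters close together and no domain. The exception was the one of 11 kb named above, given by bridging up to 10 windows. The combined set taken alone had wider clusters there, and some of them form runs that meet the same domain limits. In the replicates the last cluster was X:22419016-22420978 (score 0.95) in replicate 1 and X:22418525-22421028 (score 1.02) in replicate 2, ending 1849 and 1799 bp before the last base. In the combined set it was X:22418527-22422827 (score 0.78), which ran past the stated end of the sequence and was trimmed to it. The last 100 kb held 7 clusters in replicate 1 and 9 in replicate 2, and the widest measured 3831 bp. Their coverage was 15.5% in replicate 1, 16.0% in replicate 2 and 43.5% by the combined set.

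Within the last 200 kb coverage was higher nearer the end, though bins of 10 kb varied between the replicates. The last 50 kb were 22.6% covered in replicate 1 and 22.2% in replicate 2, and the last 200 kb were 10.6% and 9.90% covered. Such a value was not particular to the end. The 50 kb at X:20922828-20972827, 1450 kb from it, were 20.8% and 25.3% covered. In the last 10 kb replicate 1 had 21.0% and replicate 2 had 34.8%. The bins from 100 to 130 kb before the end had no cluster in either replicate. Of the last 5 bins, each had a cluster in both replicates, and none reached 40% in either. In the combined set these bins were between 30.4% and 67.1% covered, and 4 of its 13 clusters in the last 100 kb were wider than 5 kb.

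**Figure D4:**
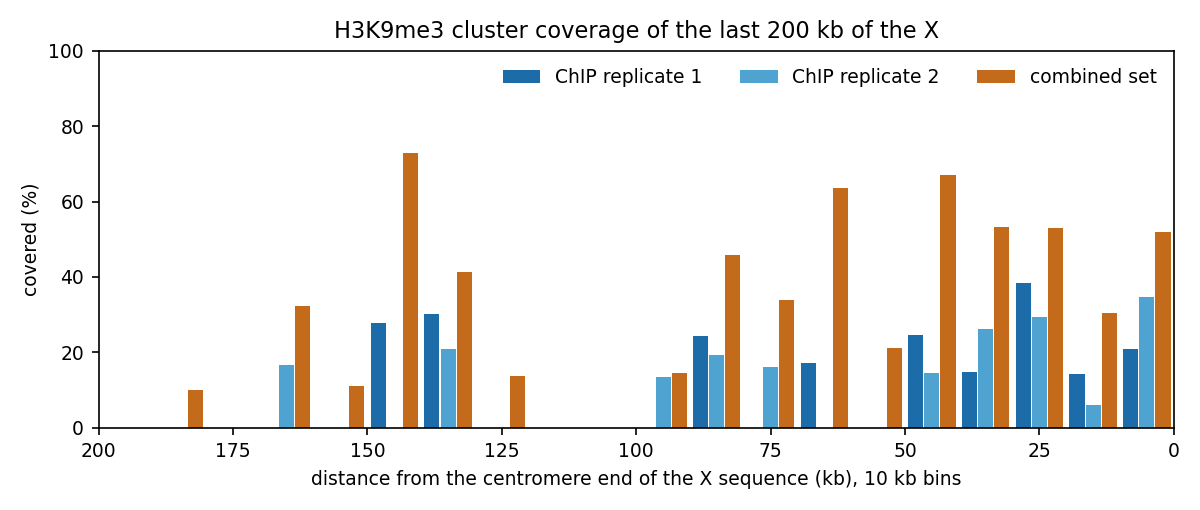
Percent of bases inside clusters (vertical axis) in 10 kb bins of the last 200 kb of the X, by distance from the centromere end of the sequence (horizontal axis, the end at the right), with 1 bar for each ChIP replicate and 1 for the combined set. Replicate bars stay below 40% up to the end, where they are 21.0% and 34.8%, while the combined set reaches 51.8%.

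The only domain of XHet by the same rule lay at XHet:133001-185000. It was 52 kb long and was covered to 94.7% by replicate 1, to 95.8% by replicate 2 and to 99.7% by the combined set. It held 49 of the 70 windows of XHet called in both replicates (70%), and 60.6% and 58.7% of the cluster sequence of XHet in the 2 replicates. In the combined set it held 39.2% of the cluster sequence. In both replicates it was made of 2 wide clusters of nearly the same extent, and a further cluster of replicate 1 entered its last 0.131 kb. The first was XHet:132617-152348 (score 1.78) in replicate 1 and XHet:132593-152485 (score 1.85) in replicate 2. The second was XHet:154852-184624 (score 1.86) and XHet:154507-184836 (score 1.88). In the combined set the interval between them closed to 0.174 kb, and they became its 2 longest clusters of XHet, XHet:132047-154330 (score 1.72) and XHet:154505-186960 (score 1.87). The next longest there, XHet:47245-59501 (score 0.57), was 26.8% covered in replicate 1 and 74.4% in replicate 2.

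The XHet domain was more fully covered than that of the proximal X. Mean coverage was 95.3% ± 0.77 in the XHet domain and 84.4% ± 0.20 in that of the proximal X. The replicates overlapped with a Jaccard index (shared over total covered sequence) of 0.983 in the XHet domain and 0.923 in that of the proximal X. Both domains were chosen for coverage in both replicates, so high overlap inside them is built in. The stretch that neither replicate covered was 2.05 kb in the XHet domain and 7.41 kb in that of the proximal X. The 2 wide clusters of the XHet domain differed in score by less than 0.1 within each replicate, but the further cluster of replicate 1 at its end scored 2.44. In the domain of the proximal X the scores were mostly higher on the side away from the centromere. The 2 widest clusters of replicate 1 there scored 1.80 and 1.65.

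Before its domain XHet carried separate clusters that scored below those of the domain. The 11 of replicate 1 scored 0.56 to 1.47, the 12 of replicate 2 scored 0.75 to 1.65, and the 21 of the combined set scored 0.36 to 1.67. The widest before the domain was 7115 bp in replicate 1 (XHet:24083-31197) and 7508 bp in replicate 2 (XHet:23663-31170). Altogether the first 133 kb were covered to 20.4% by replicate 1, to 26.4% by replicate 2 and to 52.2% by the combined set. The longest empty stretches of the replicates were 22.6 kb at XHet:59059-81637 and 17.2 kb at XHet:31198-48381, 12.0% and 22.3% covered in the combined set, and then 13.7 kb at XHet:188463-202112, 41.1% covered there.

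After the domain the replicates disagreed. In the last 19.1 kb of XHet replicate 1 had 25.2% coverage, replicate 2 had 0% and the combined set had 57.5%. Replicate 1 called 3 clusters there, with scores from 2.03 to 3.17, the highest 3 of its 16 clusters on XHet, and replicate 2 called none. The combined set listed 5 beyond the domain, and its 2 highest-scoring clusters of XHet, XHet:197950-198952 (score 3.61) and XHet:201636-204112 (score 3.00), were among them. The cluster scoring 3.61 had no counterpart in either replicate, and the one scoring 3.00 was 61.5% covered in replicate 1 and 0% in replicate 2. High scores at this end of XHet therefore rested on 1 library and the combined set.

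**Figure D5:**
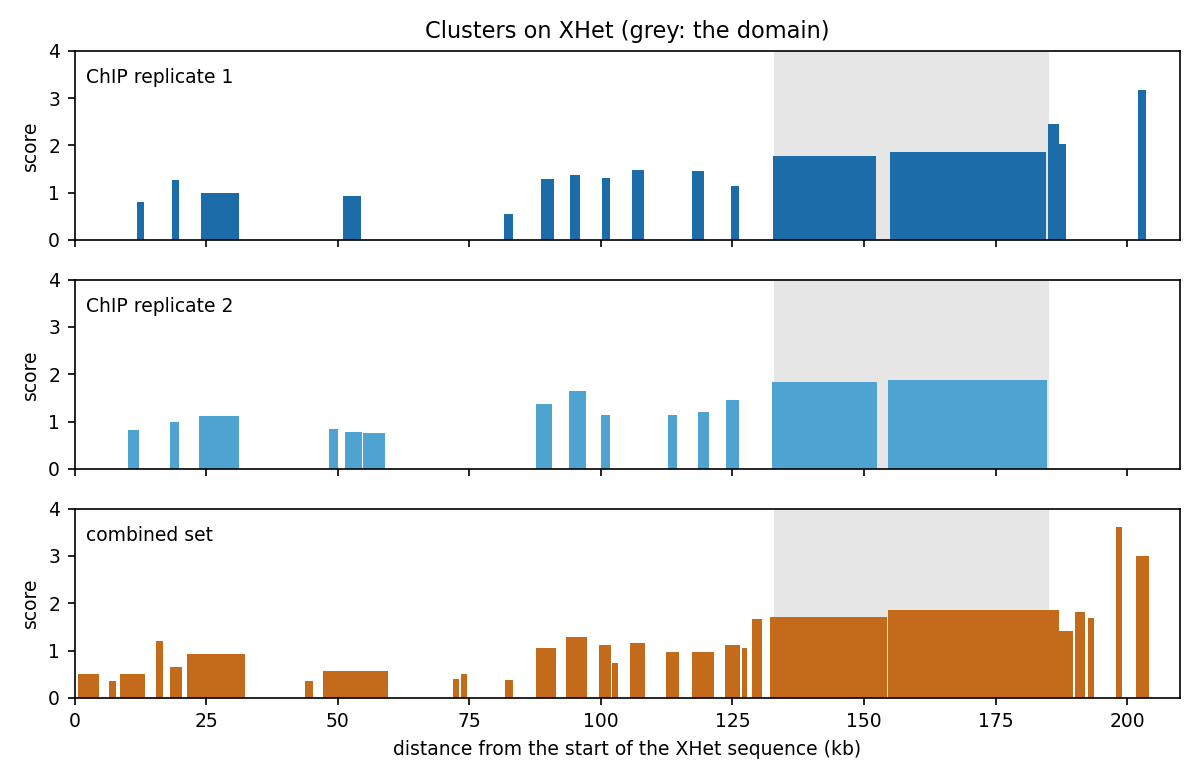
Clusters on XHet in the 2 ChIP replicates and the combined set: the width of each bar is the extent of a cluster in kb from the start of the sequence, and its height is the authors' score. The 2 wide bars of the domain match in all 3 lists, and after it replicate 1 has 3 bars that reach 3.17 while replicate 2 has none.

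XHet differed from the other heterochromatic sequences as well as from the arm. Its 40.7% ± 1.28 lay below the 56.1% ± 2.05 of YHet, the nearest of them, a difference of -15.4 points ± 3.33, and below the 63.3% ± 2.42 of 2LHet, a difference of -22.6 points ± 1.15 (exact permutation p = 0.5 for each, the smallest possible). By the combined set, where XHet was 64.8% covered, these differences were smaller, at -6.10 points from YHet and -5.63 points from 2LHet. Outside its domain XHet was 22.1% ± 1.45 covered, which was still above the proximal X outside its long domain, at 8.62% ± 0.39. By the same domain rule XHet had 1 domain in 204 kb, whereas YHet had 5 in 347 kb and 2LHet 7 in 369 kb. The domain of XHet, at 52 kb, was longer than any of YHet (31 kb at most) but not than the longest of 2LHet (63 kb). Domains took up 25.5% of XHet, 31.7% of YHet and 68.3% of 2LHet. The proximal X had 2 domains, or 1.13 per Mb, and the rest of the X had 21, or 1.03 per Mb, and the longest measured 61 kb in the proximal X and 20 kb in the rest. The first 2 Mb of 3R, the other arm sequence without a dense block at its centromere end, had 1 domain of 10 kb. The proximal X, at 11.2% ± 0.37, was 3.79 points ± 0.35 above the 7.43% ± 0.02 of that stretch (exact permutation p = 0.5, the smallest possible).

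The replicates agreed more closely on XHet than on the proximal X by covered sequence, with a Jaccard index of 0.717 on XHet and 0.502 on the proximal X. The index rises with coverage, so it does not rank the regions by repeatability. On the proximal X without its long domain it was 0.396, and on the rest of the X, with its domains kept, it was 0.486. Of the 76 clusters of replicate 1 on the proximal X, 47 were found in replicate 2 (61.8%, Wilson 95% interval 50.6% to 71.9%), with an overlap of at least 1 bp. In the other direction it was 50 of 71 (70.4%, 59.0% to 79.8%). These shares were close to those of the rest of the X, 64.4% and 70.0%. All 11 clusters of at least 3 kb in replicate 1 were found, and 12 of 14 in replicate 2, against 96.0% and 97.7% on the rest of the X. Of those under 1.5 kb, 6 of 13 and 1 of 7 were found, against 32.1% and 45.5% there. A wide cluster meets a limit of 1 bp more easily than a narrow one. On XHet 11 of 16 and 11 of 14 clusters were found. These intervals take clusters as independent, which neighbours are not.

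The combined set covered windows that neither replicate filled. Such windows, at least 50% covered in the combined set and below that in both replicates, were 18.5% of XHet and 7.88% of the proximal X, against 5.24% over all windows. The combined set had 28 clusters on XHet, of which 12 were found in neither replicate, and 148 on the proximal X, of which 65 were found in neither. The shares, 42.9% on XHet and 43.9% on the proximal X, were near the 40.7% of the rest of the X, against 35.4% in the first 2 Mb of 3R. Those found in neither had a median width of 1246 bp on XHet and 1384 bp on the proximal X. Their median score was 0.90 on XHet, where clusters found in both replicates had 1.05, and 0.54 on the proximal X, where those found in both had 0.73. They made 18.3 kb of the 35.6 kb that the combined set added on XHet and 97.0 kb of the 141 kb it added on the proximal X, and the remainder came from wider extents of clusters that a replicate also called.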

How the data were processed

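Cluster lists were available for the 2 ChIP libraries and for the series as a whole. Per the submitters' processing notes, Bowtie 0.12.7 aligned the reads. Per the file headers, the build is FlyBase release 5. Which program called the clusters, at what threshold, how the inputs entered and how the combined set was made is not given in the sources used here. The deposited score of each cluster is the authors' value on an unstated scale; the lists hold no read counts, so depth is unknown. Windows started at the first base of each region, the last of XHet being 112 bp long. Clusters that ran past a sequence end were trimmed (2 on these regions). The tools were Python 3.11.15 with scipy 1.17.1 and numpy 2.4.6 for coverage, domains and overlaps, and matplotlib 3.10.9 for figures; the code was tested on simulated lists. Windows touching a left-out interval were dropped whole. Means and SDs are over the 2 replicates, and differences between regions were taken within a library and tested by exact sign flips. The members and rules were chosen with earlier results of these data known. Regions named by position are every domain, the longest empty stretches (5 on the proximal X, 3 on XHet), the 3 longest and 3 highest-scoring clusters of the combined set and the last cluster of the arm; other clusters were named after their values were seen. No genes or sequences are given, since no genome or annotation of release 5 was used here. Alternatives were a score threshold, joining of clusters, other window limits and sizes, the combined set, and each replicate alone.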

Additional observations from a re-analysis of the deposited data

How the results depend on the processing

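The 9 main values were recomputed in 62 ways, of which 45 kept their direction or stayed within the replicate spread, within 1.5 times for a count or within the interval for a share. The 45 include coverages from 1 replicate alone. With 2 replicates such a value always lies within 1 SD of their mean, so it could not have moved. Keeping the higher-scoring clusters, those no lower than the median of their list, coverage was 37.2% on XHet, 6.86% on the proximal X and 9.115% in the last 100 kb of the arm, and 86 windows of the proximal X were at least 50% covered in both replicates. In the combined set alone these were 64.8%, 22.4%, 43.5% and 398 windows, with 132 windows on XHet and 236 windows inside domains of the proximal X (71 in the replicates). Windows inside domains numbered 24 without bridging and 137 when bridging up to 10 windows. Coverage of the end was 22.4% over 50 kb and 10.3% over 200 kb. With the left-out piRNA loci kept, the proximal X was 15.4% covered. Leaving out its longest domain gave 8.62% and turned the difference from the rest of the X to -0.090 points. This choice was made after seeing the data and applied to the proximal X alone. Each replicate alone gave 39.8% to 41.6% on XHet and 11.0% to 11.5% on the proximal X. No paired analysis was possible because the inputs, which share replicate numbers with the ChIP libraries, have no cluster list of their own. The unknown depth limits all calls of short clusters.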
